A study of Mus musculus with 2 samples.

Results

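The genes described here encode the proteasome, the barrel-shaped protease that degrades ubiquitin-tagged proteins in the cytosol and nucleus. Members were the rows whose gene symbol begins with Psm, followed by 1 letter from a to g and a number, and the 3 immunoproteasome subunits Psmb8, Psmb9 and Psmb10 were left out. The rule found 44 genes among 22756 gene rows. They were grouped by the letter of the symbol into the alpha ring (8 genes), the beta ring (7), the ATPase ring (6), the non-ATPase regulatory subunits (14), the activators (4) and the assembly chaperones with 1 inhibitor (5). Ribosome footprints, the mRNA pieces that ribosomes shield from nuclease, were sequenced from the ileum of mice fasted for 48 h and of fed mice, with 1 library for each condition. Both groups were wild type C57BL/6 animals at postnatal day 21. The sources used here do not state how many animals each library holds or whether tissue was pooled.

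The 20S core is a stack of alpha rings on the outside and beta rings on the inside, and the beta rings carry the active sites. The 19S regulatory particle caps the core: its lid and base recognise and strip ubiquitin, and its ATPase ring unfolds the substrate and threads it inward. Other caps (PA28 and PA200) open the core without needing ubiquitin. In muscle, fasting is known for induced ubiquitin ligases and proteasomal breakdown of protein, while the intestinal epithelium is renewed within days and makes its proteasomes continually.

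Footprints counted in genes numbered 5434252 in the fasted and 5558620 in the fed library. Since each condition had n = 1, every difference below is between 2 libraries and has no replicate check; no p-value was computed. Intervals are 95% exact intervals (Clopper-Pearson) and cover counting error only, since PCR copies are not independent molecules. Levels are CPM, counts relative to library size, after TMM scaling, which sets the typical gene's ratio near 1, and log2 ratios are fasted over fed. Without TMM, on plain CPM taken from gene totals only, every log2 ratio is lower by 0.32. The ileal markers Fabp6, which binds bile acids, and Slc10a2, which imports them, were present in both libraries. Of 6 enterocyte markers 4 were higher in the fasted library (summed log2 ratio 1.26). Fabp6 and Slc10a2 were called in neither direction (log2 ratios -0.44 and 0.31). All 5 smooth muscle markers and 4 of 5 fibroblast markers were lower (summed log2 ratios -0.91 and -1.58). The fibroblast marker Dcn went the other way and was called higher (log2 ratio 0.83). Goblet cell markers, also of the epithelium, were lower in 2 of 3 cases (summed log2 ratio -1.22). The 3 Paneth cell markers, of the epithelium too, were called in neither direction (summed log2 ratio 0.10). Whether these marker ratios reflect cell makeup, and what part cell makeup has in the results, was not tested.

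Subunits of the constitutive proteasome differed little between the libraries, whereas Psmg4, Psmg1, Psme2, Psmg2, Psmd5 and Psme1, which encode assembly chaperones and the cap PA28, had the lowest ratios. Of the 44 members, 43 had at least 30 counts over both libraries and were taken as measured. Of these, 1 was higher in the fasted library, by the rule of at least 1.5-fold with an interval excluding 1, where 17.2% of all 11333 measured genes were. Another 3 were lower, where 17.3% of all measured genes were, and 39 were neither. The 31 constitutive subunits of core and cap were all among the 39. In either direction 4 members were called, where 34.6% of all measured genes were. In percent, 2.33% of measured members were higher and 6.98% lower, both under the shares for all genes. The median log2 ratio of the members was 0.016, beside 0.0024 over all measured genes. The middle 50% of members spanned 0.40 log2 units, against 0.88 over all measured genes and 0.78 over the 6157 genes with at least 200 counts. The subunits of the initiation factor eIF3 spanned 0.28 and those of the chaperonin TRiC 0.36. A footprint count mixes mRNA amount and translation, and in whole tissue fewer cells of a type and less RNA per cell cannot be told apart.

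Scaling decides how the shared level reads. With plain CPM 0 members were higher, where 8.86% of all genes were, and 10 were lower, where 31.2% of all genes were (40.1% in either direction), at a median of -0.31. All members together took 0.329% of gene counts in the fasted library (interval 0.324% to 0.334%) and 0.400% in the fed library (0.395% to 0.405%). Relative to the total the members together thus took a smaller share in the fasted library. Relative to the typical gene their summed log2 ratio was 0.042 (0.014 to 0.071). For the 31 constitutive subunits alone it was 0.090 (0.060 to 0.12), and -0.23 with plain CPM.

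**Figure D1:**
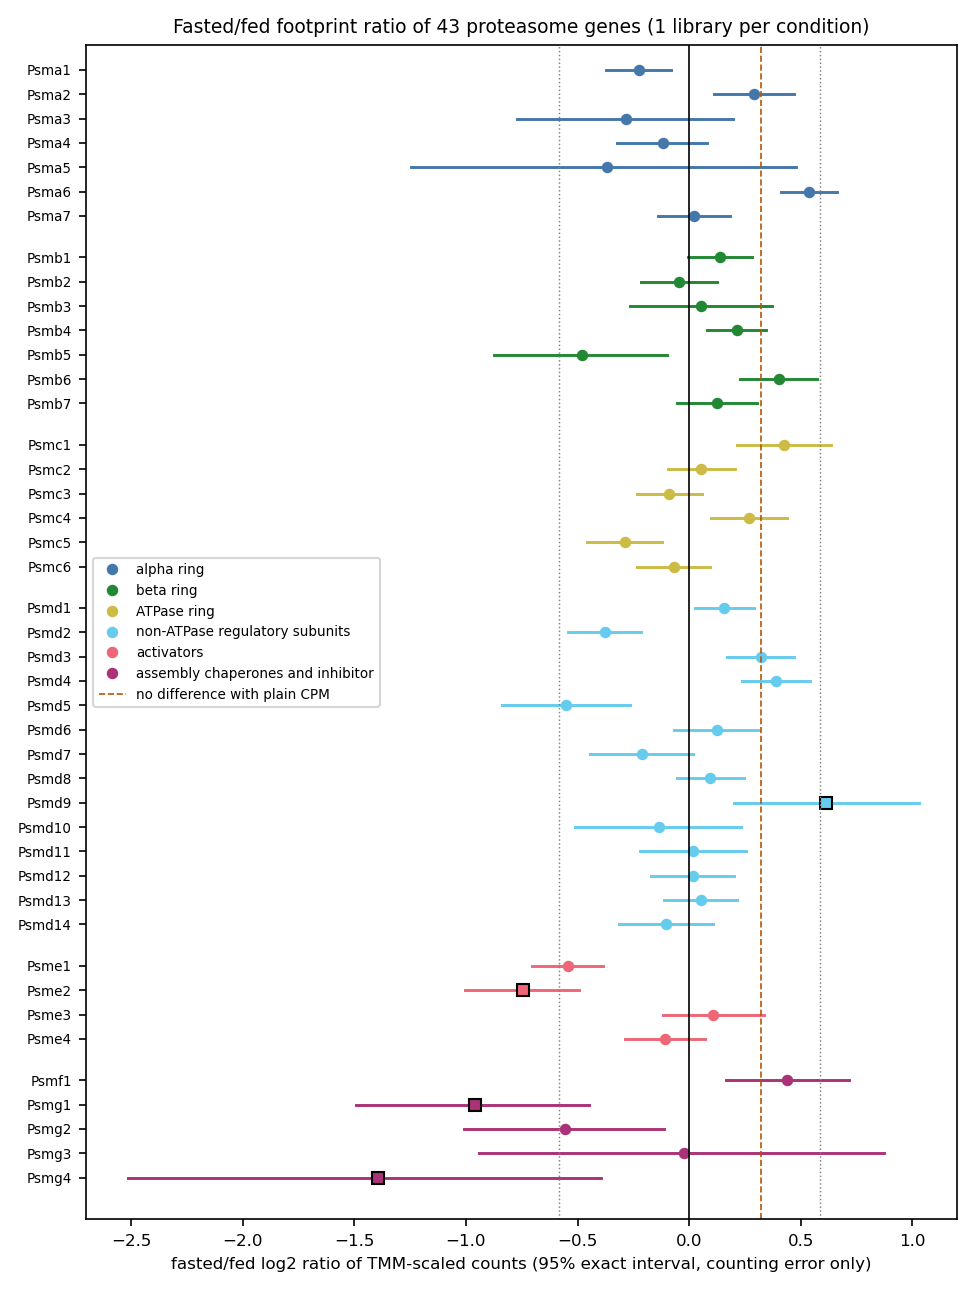
Fasted/fed log2 ratio of each of the 43 measured members on the x axis, with 95% exact intervals as bars, grouped by role down the page; squares with a black edge mark the 4 members called higher or lower, dotted lines mark 1.5-fold and the dashed line marks no difference with plain CPM. Points of both rings, the ATPases and the regulatory subunits cluster around 0, while Psmd5, Psme1, Psme2, Psmg1, Psmg2 and Psmg4 lie left of -0.50.

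The alpha ring forms the gate of the core. None of its 7 measured members was called in either direction, and the median log2 ratio was -0.12. Psma6 had the highest ratio and also the highest level per coding kilobase. It had 1141 counts (235 scaled CPM) in the fasted library, against 1006 (162 scaled CPM) in the fed library. That is a log2 ratio of 0.54 (0.41 to 0.66), 1.45-fold and so under the threshold although its interval lies above 0. Psma5 had the lowest ratio, -0.37 (-1.25 to 0.48), on 20 counts (4.12 scaled CPM) in the fasted and 33 (5.31 scaled CPM) in the fed library. Its interval is the widest of the ring, and only 10.7% of its coding sequence is unique. Psma1 had 654 counts in the fasted and 978 in the fed library, a log2 ratio of -0.23 (-0.37 to -0.081). Psma2 went the other way at 0.29 (0.11 to 0.47), with 500 and 523 counts in the fasted and the fed library. With TMM scaling, subunits of the same ring thus sat on both sides of 0 by more than counting error. With plain CPM Psma6 stayed above 0 at 0.21 (0.091 to 0.34), but Psma2 was at -0.032 (-0.21 to 0.15). The intervals of Psma1 and Psma2 do not overlap under either scaling. Psma3, Psma4 and Psma7 lay between -0.28 and 0.022 with intervals spanning 0. Psma8, known as a testis-specific alpha subunit, had 1 count in the fasted and 2 in the fed library and was not measured.

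The beta ring holds the proteolytic sites. Again 0 of 7 members were called higher and 0 lower, and the median log2 ratio was 0.12. The catalytic subunits spread furthest apart within the ring. Psmb6, the caspase-like subunit, had 566 counts (116 scaled CPM) in the fasted and 548 (88.2 scaled CPM) in the fed library, a log2 ratio of 0.40 (0.23 to 0.57). Psmb5, the chymotrypsin-like subunit and the main target of proteasome inhibitors, had 89 counts (18.3 scaled CPM) in the fasted and 159 (25.6 scaled CPM) in the fed library, at -0.48 (-0.87 to -0.099). Psmb7, the trypsin-like subunit, had 473 and 555 counts in the fasted and the fed library, at 0.12 (-0.056 to 0.30). The intervals of Psmb6 and Psmb5 do not overlap, but only 15.2% of the Psmb5 coding sequence is unique. Psmb4, a non-catalytic subunit with the highest level per coding kilobase of this ring, had 904 counts (186 scaled CPM) in the fasted and 998 (161 scaled CPM) in the fed library (0.21, 0.081 to 0.34). Psmb1, Psmb2 and Psmb3, which line the ring without an active site, lay between -0.044 and 0.14 with intervals spanning 0. Summed counts of the beta ring per 100 counts of the alpha ring were 104.0 in the fasted and 103.5 in the fed library.

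The ATPase ring, the motor that unfolds substrates, had 0 of 6 members called, at a median log2 ratio of -0.0072. Psmc1 was highest with 380 counts (78.2 scaled CPM) in the fasted and 362 (58.2 scaled CPM) in the fed library (0.43, 0.21 to 0.64). Psmc5 was lowest with 485 counts (99.8 scaled CPM) in the fasted and 758 (122 scaled CPM) in the fed library (-0.29, -0.46 to -0.12). Psmc3, with the highest level per coding kilobase of the ring over both libraries together, had 659 counts (136 scaled CPM) in the fasted and 896 (144 scaled CPM) in the fed library (-0.088, -0.24 to 0.059). The 6 subunits are present in equal number in the assembled ring, yet the intervals of Psmc1 and Psmc5 do not overlap. Only 50.3% of the Psmc1 coding sequence is unique. Psmc4 had 0.27 (0.098 to 0.44), and Psmc2 and Psmc6 had 0.055 and -0.070 with intervals spanning 0. Coding exons of Psmc3 and Psmd3 overlap Slc39a13 and Gm12356 on the opposite strand, yet every 30-base window of their coding sequences is unique among annotated transcripts. The strand setting of the counting is not known, and in Psmb7 25.9% of windows are shared with Nek6 on the opposite strand. In Psmd1 9.29% of windows are shared with Gm21972 on the same strand.

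Among the 14 non-ATPase genes the lid was the most even group. Its 8 subunits within the rule were Psmd3, Psmd6, Psmd7, Psmd8, Psmd11, Psmd12, Psmd13 and Psmd14, all measured. They had log2 ratios between -0.21 and 0.32, none called, at a median of 0.035. The middle 50% of these 8 spanned 0.12 log2 units. Shfm1, a lid subunit outside the rule, lay below this range. It had 120 counts in the fasted and 199 in the fed library (-0.37, -0.71 to -0.041), and was called lower with plain CPM (-0.70). Psmd14, the deubiquitinase that removes ubiquitin chains at the pore, had 325 counts in the fasted and 446 in the fed library (-0.10, -0.31 to 0.11). Psmd3 was the highest of the lid with 727 and 745 counts in the fasted and the fed library (0.32, 0.17 to 0.47). Psmd8, with the highest level per coding kilobase of the 14, had 679 counts (140 scaled CPM) in the fasted and 813 (131 scaled CPM) in the fed library (0.095, -0.054 to 0.24).

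With TMM scaling the base subunits pointed in different directions. Psmd4, the ubiquitin receptor of the base, had 723 counts in the fasted and 706 in the fed library (0.39, 0.24 to 0.54). Psmd1 and Psmd2 are the large scaffolds on which shuttle factors and ubiquitin dock. Psmd1 had 863 and 989 counts in the fasted and the fed library (0.16, 0.025 to 0.29). Psmd2 had 493 and 819 counts in the fasted and the fed library (-0.38, -0.54 to -0.21), so the scaffolds lay apart by more than counting error. Only 53.2% of the Psmd2 coding sequence is unique. With plain CPM Psmd2 passed the threshold as lower (-0.70), Psmd1 was at -0.16 (-0.30 to -0.031) and Psmd4 at 0.067 (-0.085 to 0.22).

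Psmd5, Psmd9 and Psmd10 carry the same letter but are chaperones that help build the base and leave the finished particle. Psmd9 (ENSMUSG00000029440, chromosome 5, 123169413 to 123250131, plus strand, mm10) was the member called higher. It had 110 counts (22.6 scaled CPM) in the fasted library, against 92 (14.8 scaled CPM) in the fed library, a log2 ratio of 0.61 (0.20 to 1.03). At 1.53-fold it lies just past the threshold, and it was not called with plain CPM (0.29). Psmd5 had the lowest ratio of all 14 genes, with 156 counts (32.1 scaled CPM) in the fasted and 292 (47.0 scaled CPM) in the fed library (-0.55, -0.84 to -0.26), 1.46-fold lower and just short of the threshold. Psmd10, also called gankyrin, had 106 and 149 counts in the fasted and the fed library (-0.14, -0.51 to 0.23). The chaperones of the base thus did not move as a group.

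The activators divided by kind. Psme1 and Psme2 encode PA28 alpha and beta, the interferon-inducible cap that works mostly with the immunoproteasome in making peptides for MHC class I. They lie 5911 bases apart on chromosome 14 (Psme1 at 55578123 to 55581529, plus strand; Psme2 at 55587441 to 55591113, minus strand). Psme2 had 187 counts (38.5 scaled CPM) in the fasted library, against 401 (64.5 scaled CPM) in the fed library, and was called lower at 1.68-fold (log2 ratio -0.75, -1.004 to -0.49). Psme1 had 491 counts (101 scaled CPM) in the fasted library, against 916 (147 scaled CPM) in the fed library (-0.54, -0.71 to -0.38). At 1.46-fold it missed the threshold, and with plain CPM it was called lower (-0.87). Both partners were thus lower in the fasted library by more than counting error, and to a similar degree. Only 20.9% of the Psme2 coding sequence is unique, and it shares windows with Psme2b. The other caps stood apart from this pair. Psme3, the nuclear PA28 gamma, had 296 counts (60.9 scaled CPM) in the fasted and 351 (56.5 scaled CPM) in the fed library (0.11, -0.12 to 0.34). Psme4, which encodes the cap PA200, had 442 and 609 counts in the fasted and the fed library (-0.11, -0.29 to 0.072). The intervals of Psme3 and Psme4 overlap neither that of Psme1 nor that of Psme2.

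The assembly chaperones Psmg1 to Psmg4 help build the alpha ring and are not part of the finished core. Psmg1 (chromosome 16, 95979933 to 95990960, minus strand) had 45 counts (9.26 scaled CPM) in the fasted library, against 112 (18.0 scaled CPM) in the fed library, and was called lower at 1.95-fold (-0.96, -1.49 to -0.45). Psmg4 (chromosome 13, 34162964 to 34178173, plus strand) had 11 counts (2.26 scaled CPM) in the fasted library, against 37 (5.95 scaled CPM) in the fed library, and was called lower at 2.63-fold (-1.39, -2.51 to -0.39). Psmg2, which pairs with Psmg1, had 66 and 124 counts in the fasted and the fed library (-0.55, -1.01 to -0.11), 1.47-fold lower and not called. Psmg3, which pairs with Psmg4, had 20 and 26 counts in the fasted and the fed library (-0.023, -0.94 to 0.87), too few to place it. Its coding exons also overlap Gm26938 on the same strand. Summed over the 4 chaperones the fasted library held 142 counts and the fed library 299 (log2 ratio -0.72, -1.02 to -0.43). Psmf1, which encodes PI31, known first as an inhibitor of the core, went the other way with 229 counts (47.1 scaled CPM) in the fasted and 216 (34.8 scaled CPM) in the fed library (0.44, 0.16 to 0.71; 0.12 with plain CPM).

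Counts set against the 20S core of the same library do not depend on scaling. The core is taken here as the sum over its 14 ubiquitous subunits, 6714 counts in the fasted and 7799 in the fed library. Per 100 core counts, the 17 subunits of the 19S particle within the rule had 134 counts in the fasted and 142 in the fed library. That is a log2 ratio of -0.084 (-0.15 to -0.022). Shfm1 and Adrm1, subunits of the 19S particle outside the rule, were left out. Cap and core thus kept nearly the same proportion. Psme1 and Psme2 together had 10.1 counts per 100 core counts in the fasted library, against 16.9 in the fed library (-0.74, -0.89 to -0.60). Psmg1 to Psmg4 together had 2.11 in the fasted library, against 3.83 in the fed library (-0.86, -1.16 to -0.56). Psmd5 had 2.32 in the fasted library, against 3.74 in the fed library (-0.69, -0.98 to -0.40). For these 3, the lower value relative to the core in the fasted library does not depend on scaling, unlike the level of the whole particle. They hold the members with the lowest ratios in these same counts, so this is no separate evidence. The other base chaperones, Psmd9 and Psmd10 (log2 ratios 0.61 and -0.14), were not set against the core. Per 100 core counts Psme3 had 4.41 in the fasted and 4.501 in the fed library (-0.030, -0.26 to 0.20). Psme4 had 6.58 in the fasted and 7.81 in the fed library, with an interval below 0 (-0.25, -0.43 to -0.061). Psmf1 had 3.41 in the fasted and 2.77 in the fed library, with an interval above 0 (0.30, 0.022 to 0.58).

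**Figure D2:**
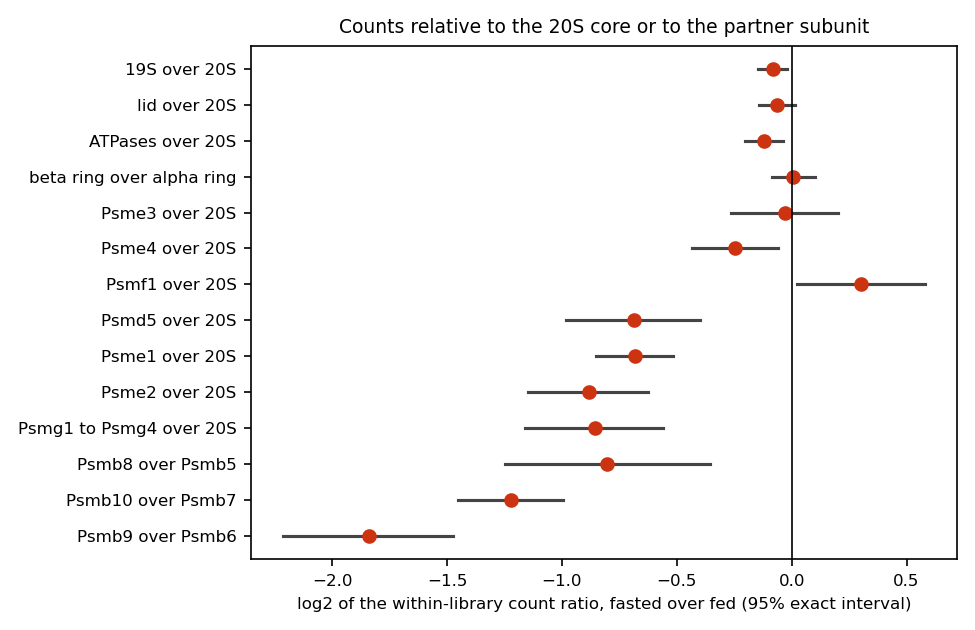
Log2 of the fasted over fed value of each within-library count ratio on the x axis, with 95% exact intervals for counting error as bars and 1 row for each pair of quantities. The ratios of 19S, lid, ATPases and Psme3 to the core and of beta to alpha ring lie between -0.12 and 0.0075, while those of PA28, Psmg1 to Psmg4, Psmd5 and the immunoproteasome lie below -0.50; Psme4 lies at -0.25 and Psmf1 at 0.30.

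The immunoproteasome subunits replace the catalytic subunits under interferon and in immune cells, and each was lower in the fasted library. Psmb9, which takes the place of Psmb6, had 104 counts in the fasted and 361 in the fed library (-1.44, -1.77 to -1.12). Set against its constitutive partner, that is 18.4 counts per 100 Psmb6 counts in the fasted library and 65.9 in the fed library, 3.59-fold lower. Psmb10 had 565 counts in the fasted and 1548 in the fed library (-1.099, -1.24 to -0.96). Psmb10 per 100 Psmb7 counts stood at 119 in the fasted and 279 in the fed library, 2.34-fold lower. Psmb8 had 238 counts in the fasted and 743 in the fed library (-1.29, -1.50 to -1.07). Psmb8 per 100 Psmb5 counts stood at 267 in the fasted and 467 in the fed library, 1.75-fold lower. Only 15.2% of the Psmb5 coding sequence is unique, against 83.5% for Psmb8. These counts therefore do not compare the levels of both genes. Per kilobase of unique coding sequence Psmb8 had 70.9 scaled CPM in the fasted and 173 in the fed library. Psmb5 had 152 in the fasted and 212 in the fed library. All 3 pairs differed in the same direction, and all 3 intervals of the log2 ratio lay below 0 (-2.21 to -1.48, -1.45 to -0.99 and -1.25 to -0.36). The 5 haematopoietic and plasma cell markers, Ptprc and Jchain among them, were all measured and none was at 0. Their summed level was 423 scaled CPM in the fasted library and 891 in the fed library, with 4 lower and Cd3e neither. The part of immune cell content in the ratios of PA28 and the immunoproteasome was not tested.

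**Figure D3:**
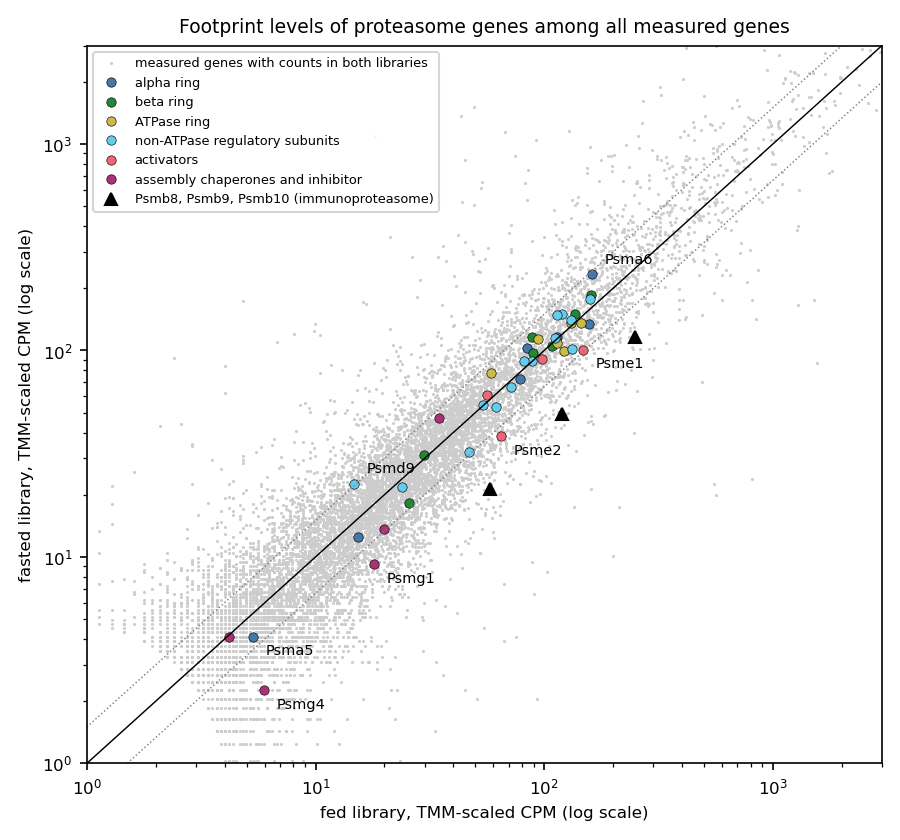
TMM-scaled CPM in the fed library (x axis, log scale) and in the fasted library (y axis, log scale) for the 43 measured members, coloured by role, over all measured genes with counts in both libraries (grey; genes beyond the axes are not drawn). Most members follow the line of equal level within the dotted 1.5-fold lines, whereas the 3 immunoproteasome subunits (triangles), Psme2, Psmg1 and Psmg4 lie below it.

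Levels of different subunits can be compared per kilobase of coding sequence, once the part of that sequence in which a read can be placed is known. Many proteasome genes have processed pseudogenes, and reads with more than 1 alignment stayed outside the gene counts. Of all 30-base windows of the coding sequence, 100% were unique among annotated transcripts for 23 of the 44 members and under 50% for 8. The share was 8.29% for Psma3, 10.7% for Psma5, 15.2% for Psmb5 and 15.4% for Psmb3, whose windows recur in 10 other annotated genes. Per coding kilobase the 31 constitutive subunits ran in the fasted library from 5.69 scaled CPM for Psma5 to 318 for Psma6, a 55.9-fold range. In the fed library the range was 29.9-fold, from 7.34 for Psma5 to 219 for Psma6. Per kilobase of unique coding sequence the range shrank to 6.16-fold in the fasted and 5.16-fold in the fed library. The low raw counts of Psma3, Psma5, Psmb3 and Psmb5 therefore went with low uniqueness.

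Per unique kilobase the median of the core stood above that of the cap in both libraries, although Psma5 (53.4 in the fasted and 68.9 in the fed library) lay within or below the range of the cap. The 14 core subunits had a median level of 199 scaled CPM in the fasted and 201 in the fed library. The 17 subunits of the 19S particle within the rule had a median level of 90.3 in the fasted and 87.8 in the fed library. Restricting both to subunits with at least 50% unique windows left 9 core subunits, with medians of 199.9 and 179 in the fasted and the fed library. The 16 remaining 19S subunits had medians of 92.2 and 89.3 in the fasted and the fed library. Those 9 core subunits lay between 156 (Psma7) and 319 (Psma6) in the fasted library and between 151 (Psmb6) and 246 (Psmb1) in the fed library. In the fasted library the 16 cap subunits lay between 55.3 (Psmd7) and 135 (Psmd8). In the fed library they lay between 61.4 (Psmd1) and 127 (Psmd8). On this measure these core and cap subunits did not overlap in either library. It counts the windows that Psmb7 shares with Nek6 on the opposite strand as not unique, and the strand setting is not known. Per coding kilobase Psmb7 (117 and 107) lay below Psmd8 (132 and 124) in the fasted and the fed library. Per coding kilobase the core chaperones and PA200 stood lower, with Psme4 at 16.45 and 17.7 and Psmg1 at 10.7 and 20.8 scaled CPM in the fasted and the fed library. PA28 did not follow them: Psme1 had 135 in the fasted library, against 197 in the fed library, per coding kilobase.

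**Figure D4:**
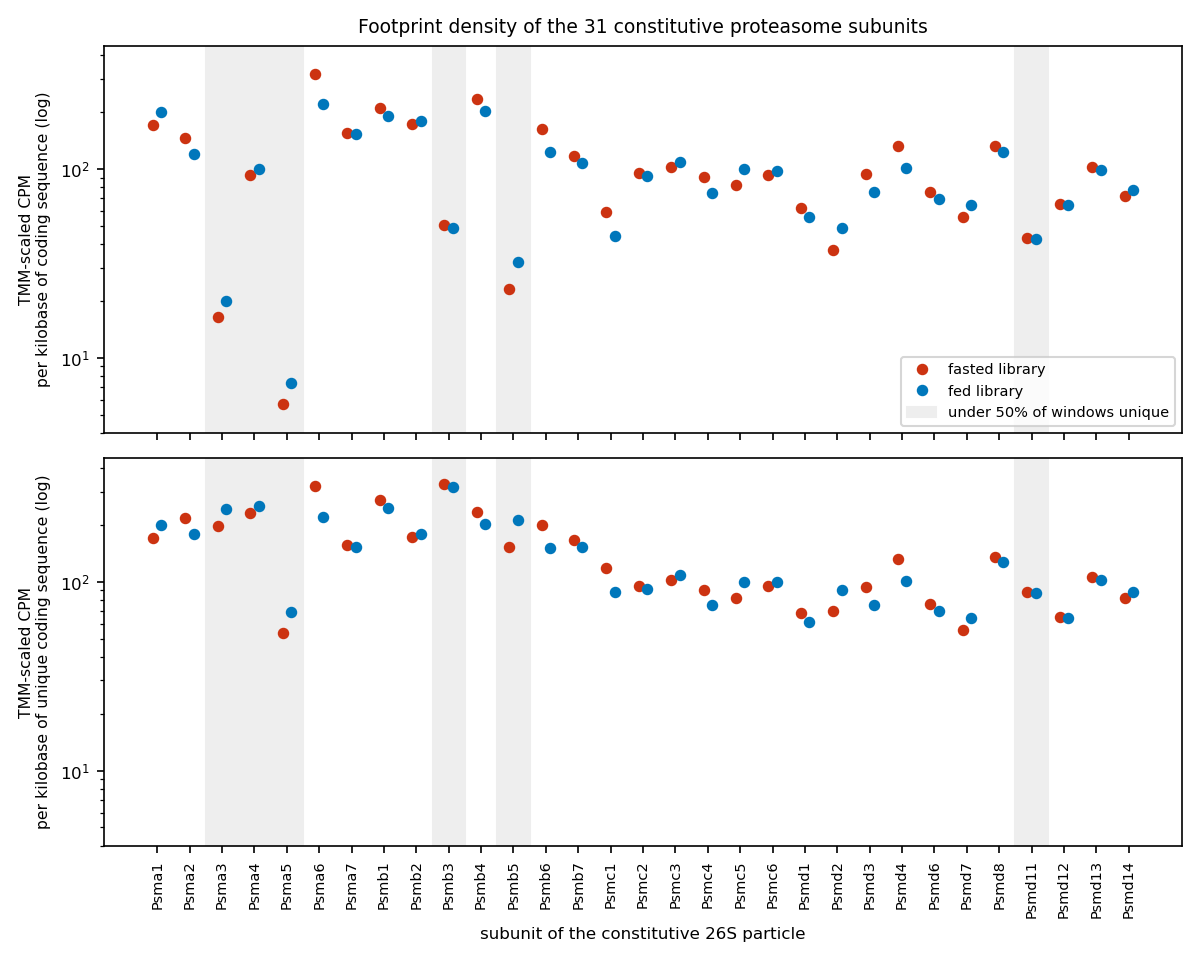
Footprint density of the 31 constitutive subunits (x axis) as TMM-scaled CPM per coding kilobase (upper panel) and per kilobase of unique coding sequence (lower panel), both on log scales, with the fasted library in red left of the fed library in blue; grey bands mark subunits with under 50% unique windows. The subunits in grey bands that fall far below the others in the upper panel join them in the lower panel, except Psma5 at 53.4 and 68.9, and among subunits outside the grey bands the Psma and Psmb genes stand above the Psmc and Psmd genes in the lower panel.

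The members lie on 16 chromosomes, and their promoters were searched for letters in common. RefSeq windows (GRCm38.p6) from 250 bases before to 50 bases after a transcript start were at hand for 36 of the 44 members. That start can differ from the gene start given here. The ETS core CCGGAAG, on either strand, was held by 14 of these 36 (38.9%), by 10 of 25 constitutive subunits (40%), by 19.8% of the 8675 measured genes with a window and by 9.93% of all genes with a window. The core antioxidant response element TGACNNNGC, bound by NRF1 and NRF2, was held by 6 of 36 members (16.7%) and by 16.7% of measured genes. CCAAT was held by 12 of 36 members (33.3%) and by 42.7% of measured genes. Interferon motifs were added after the values were seen. Of these, GAAA, any 2 bases and GAAA again (the core of the interferon-stimulated response element) was held by 5 of 36 members (13.9%; Psmb3, Psmd4, Psmd9, Psme1 and Psmg4), by 0 of 3 immunoproteasome genes and by 3.87% of measured genes, and TTCNNNGAA by 2 of 36 members (5.56%) and by 8.33% of measured genes. The interferon motif and TTCNNNGAA, the core of a STAT site, can share letters, the sites marked here do not overlap, and a match describes letters, not a bound site. The windows of Psma6, the constitutive subunit with the highest ratio, Psmd4, the ubiquitin receptor, and Psme1, of the PA28 pair, are shown 5′ to 3′ on the gene's strand. Capitals mark CCGGAAG on either strand in Psma6, CCGGAAG and CCAAT on either strand in Psmd4, and the interferon motif, here on the opposite strand, in Psme1.
Psma6, chr12:55398575-55398874, plus strand: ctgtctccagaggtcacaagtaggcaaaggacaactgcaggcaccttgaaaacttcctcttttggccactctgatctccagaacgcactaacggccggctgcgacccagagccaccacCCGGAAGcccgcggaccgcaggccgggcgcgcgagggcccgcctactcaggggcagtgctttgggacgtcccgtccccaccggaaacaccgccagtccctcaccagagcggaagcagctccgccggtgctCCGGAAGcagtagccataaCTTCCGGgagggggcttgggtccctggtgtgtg
Psmd4, chr3:95042565-95042864, minus strand: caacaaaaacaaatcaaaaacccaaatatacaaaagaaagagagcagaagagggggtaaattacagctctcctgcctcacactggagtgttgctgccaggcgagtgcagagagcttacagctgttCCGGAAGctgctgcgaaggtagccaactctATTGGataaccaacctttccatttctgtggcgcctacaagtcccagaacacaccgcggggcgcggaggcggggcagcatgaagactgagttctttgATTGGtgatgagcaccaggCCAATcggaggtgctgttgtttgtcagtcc
Psme1, chr14:55578244-55578543, plus strand: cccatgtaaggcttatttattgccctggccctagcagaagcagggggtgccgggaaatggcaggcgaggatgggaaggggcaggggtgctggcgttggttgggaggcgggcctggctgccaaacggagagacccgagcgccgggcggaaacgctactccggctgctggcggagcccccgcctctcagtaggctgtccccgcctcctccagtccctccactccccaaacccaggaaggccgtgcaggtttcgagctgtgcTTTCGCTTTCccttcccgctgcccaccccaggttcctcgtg
The Psma6 window shown holds CCGGAAG at 3 places, of which the closest begins 2 bases before the start of this window's transcript. The other Psma6 window, at the annotated gene start (chr12:55383972-55384271), holds none. In Psme1 the interferon motif begins 9 bases after the start of this window's transcript. The whole Psme1 window lies downstream of the annotated gene start at 55578123.

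Other genes of the ubiquitin pathway were taken from lists by role. One list held proteasome-linked genes outside the rule (ubiquitin receptors, tethers, the maturation factor, recycling enzymes and transcription factors). Of its 23 measured genes, 2 had higher and 3 had lower calls and 18 had none, with a median log2 ratio of 0.021. That is 8.70% higher and 13.04% lower, where 17.2% and 17.3% of all measured genes were. With plain CPM 0 of them were higher, where 8.86% of all measured genes were, and 9 lower (39.13%, beside 31.2%). Pomp, which matures the core, had 496 counts in the fasted and 546 in the fed library (0.22, 0.038 to 0.39). Adrm1, a ubiquitin receptor of the base, had 42 and 38 counts in the fasted and the fed library (0.50, -0.17 to 1.17), on a coding sequence only 7.55% unique. Nfe2l1, which encodes NRF1, the factor that drives proteasome genes when proteasomes fall short, had 373 and 679 counts in the fasted and the fed library (-0.51, -0.70 to -0.32), which was called lower only with plain CPM. Its relative Nfe2l2, which encodes the antioxidant factor NRF2, was called lower with 310 counts in the fasted and 1577 in the fed library (-1.99, -2.17 to -1.82). Uchl5, a deubiquitinase of the 19S particle, was also lower (-0.67, -1.06 to -0.29). Txnl1, a thioredoxin-like protein bound to the 19S particle (0.75, 0.59 to 0.91), and Ufd1l, a cofactor of the segregase VCP (0.77, 0.52 to 1.02), were higher, though not with plain CPM (0.43 and 0.45).

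Ubb, which encodes a chain of ubiquitin repeats, was higher, also with plain CPM. It had 1244 counts (256 scaled CPM) in the fasted library, against 800 (129 scaled CPM) in the fed library (0.99, 0.86 to 1.12), with 14.2% of its coding sequence unique. The activating enzymes differed from each other: Uba1 had 3772 and 4659 counts in the fasted and the fed library (0.050, -0.012 to 0.11), while Uba6 was lower with 122 and 350 counts in the fasted and the fed library (-1.17, -1.47 to -0.86).

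Among 22 measured E2 conjugating enzymes, 1 was higher, 2 lower and 19 neither (median 0.23). That is 4.55% higher and 9.09% lower, where 17.2% and 17.3% of all measured genes were. Ube2c, which works with the anaphase-promoting complex in mitosis, was lower (-1.26, -1.61 to -0.91), Ube2w was also lower (-0.68, -1.26 to -0.12), and Ube2j2, which acts at the endoplasmic reticulum, was higher (0.89, 0.020 to 1.79). With plain CPM 0 E2 enzymes were higher, where 8.86% of all measured genes were, and 4 lower (18.2%, beside 31.2%). Among 15 measured E3 ligases of fasting-induced and N-degron breakdown, 4 were higher, 1 lower and 10 neither (median 0.039). That is 26.7% higher and 6.67% lower, beside 17.2% and 17.3% of all measured genes. Fbxo32, which encodes atrogin-1, the ligase induced in wasting muscle, had 519 counts in the fasted and 219 in the fed library, 3.03-fold higher (1.5999, 1.37 to 1.83). All 5 smooth muscle markers were lower in the fasted library, and which cells hold the Fbxo32 footprints was not tested. Trim63, the other muscle ligase, had 3 and 0 counts in the fasted and the fed library and was not measured. Huwe1, a very large ligase with many substrates (0.66, 0.56 to 0.75), and Mdm2, the ligase for p53 (0.65, 0.27 to 1.03), were higher, though not with plain CPM. Traf6, a ligase of innate signalling, was lower (-0.61, -1.20 to -0.032). With plain CPM 1 ligase, Fbxo32, was higher (6.67%, beside 8.86% of all measured genes). Another 4 were lower (26.7%, beside 31.2%).

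Other multi-subunit complexes had medians below 0, while their shares of lower calls are to be read beside the 17.3% of all measured genes called lower. The COP9 signalosome and eIF3 are relatives of the proteasome lid in subunit architecture. The COP9 signalosome had 1 of 9 measured subunits lower, Cops7b (-0.64, -1.26 to -0.057), 0 higher and a median log2 ratio of -0.12. This is 11.1% lower, under the share of all genes. The initiation factor eIF3 had 2 of 12 lower, Eif3b (-0.61, -0.76 to -0.46) and Eif3e (-0.67, -0.94 to -0.41), 0 higher and a median of -0.40. This is 16.7% lower, near the share of all genes. TRiC, the ring-shaped chaperonin that folds actin and tubulin, had 3 of 7 lower, Tcp1 (-0.91, -1.05 to -0.76), Cct2 (-0.72, -0.86 to -0.59) and Cct4 (-0.72, -0.86 to -0.58), 0 higher and a median of -0.50. With plain CPM the lower calls numbered 4 for the COP9 signalosome, 8 for eIF3 and 6 for TRiC, and 0 subunits were higher. On that scale 31.2% of all measured genes were lower and 8.86% higher. Of 12 measured cathepsins 2 were higher (16.7%, near the 17.2% of all measured genes), Ctsl (1.24, 1.0995 to 1.38) and Ctsf (1.12, 0.62 to 1.64), and 0 lower, at a median of 0.16 (-0.16 with plain CPM). Of 28 measured core autophagy genes 11 were higher (39.3%, beside 17.2% of all measured genes) and 0 lower, at a median of 0.43 (6 higher and 1 lower with plain CPM). They included Sqstm1, the receptor p62 that carries ubiquitinated cargo into autophagosomes, with 3009 counts in the fasted and 1630 in the fed library (1.24, 1.15 to 1.33), Becn1 (1.30, 0.98 to 1.63) and Gabarapl1 (1.36, 0.97 to 1.75). With 1 library for each condition no difference between these lists was tested.

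**Figure D5:**
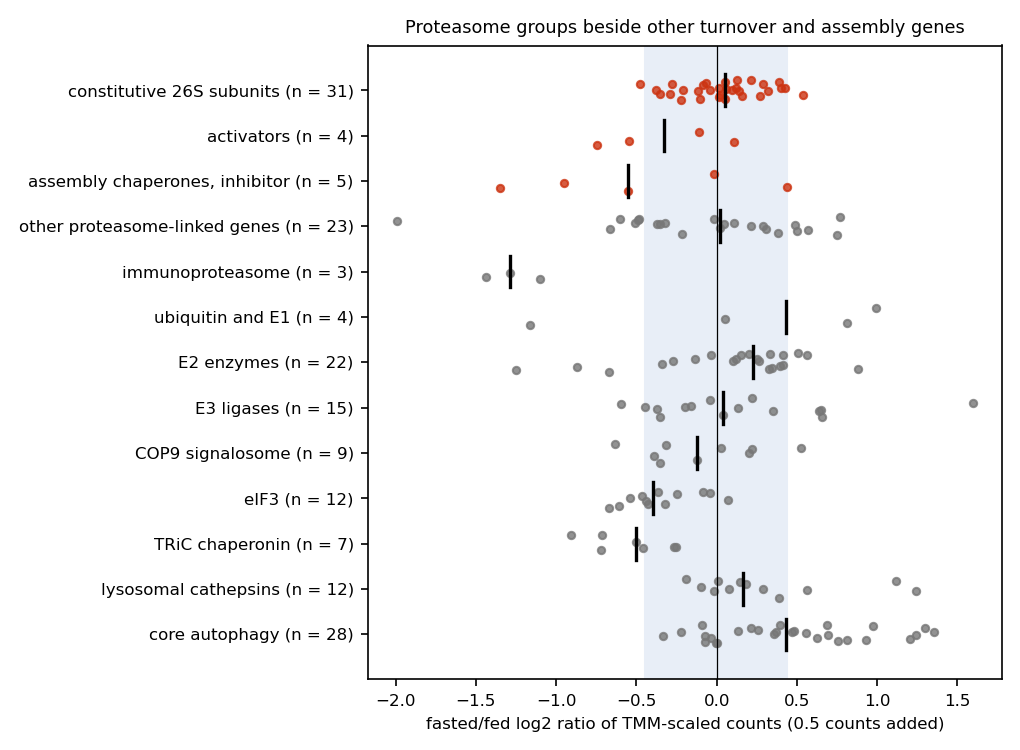
Fasted/fed log2 ratio (x axis, 0.5 counts added) of each measured gene, with 1 row for each group; proteasome groups are in red, other lists in grey, black ticks are medians, and the shaded band holds the middle 50% of all measured genes. The 31 constitutive subunits lie between -0.48 and 0.54 around a median of 0.052, TRiC and eIF3 lie mostly left of 0, and core autophagy lies mostly right of it.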

How the data were processed

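Ribosome footprints of the ileum were measured in 1 library of fasted and 1 of fed mice. For each gene symbol the authors deposited a whole-number count of reads without normalisation. Per the submitters' processing notes, HTSeq, STAR, Bowtie 1.1.2 and cutadapt were used with the build mm10. Annotation, strand setting and footprint length filter: not given in the sources used here. Gene rows given as NA (7827 in the fasted and 7647 in the fed file) were read as 0. Rows that name no gene were left out of library sizes: of all reads in the file, 21.0% in the fasted and 13.4% in the fed file lay over no feature, 39.9% in the fasted and 41.4% in the fed file had several alignments, and 0.196% in the fasted and 0.209% in the fed file were ambiguous. The limit for a gene at 0 is 3 counts, or 0.552 CPM in the fasted and 0.540 CPM in the fed library before TMM scaling.

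Library sizes were scaled with TMM (edgeR 4.0.16, R 4.3.3), and edgeR was used for scaling only. Each ratio has a 95% Clopper-Pearson interval on the split of its counts between the libraries (SciPy 1.17.1). Genes with at least 30 summed counts were measured. Calls needed a 1.5-fold ratio in either direction together with an interval excluding 1, and no p-value was computed. Medians used log2 ratios with 0.5 counts added. The interval and call functions were checked on simulated data. Symbols were looked up in GENCODE vM21, which uses GRCm38 (mm10), and found for 21943 of 22756 rows (96.4%), which gave coordinates, coding lengths and the unique share of 30-base coding windows against all annotated transcripts. Alternatives were plain CPM, median-ratio factors (DESeq2 1.42.0), upper-quartile factors, other minimums, thresholds and interval levels. Members, gene lists and motifs were chosen with earlier results of these data known. Full values were given for members called and, for each role, for the highest and lowest ratio and the most counts per coding kilobase. Of other lists, up to 3 called genes in each direction were named by the interval bound nearest to 1, plus a few best-known genes. Uba1 and Trim63 were named after their values were seen, and a few genes of these lists are not reported here.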

Additional observations from a re-analysis of the deposited data

How the results depend on the processing

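The count of members higher in the fasted library was 1 and that of members lower was 3, at a median log2 ratio of 0.016. With plain CPM these became 0, 10 and -0.31. A minimum of 200 counts left 1 lower. A 2-fold threshold left 0 higher and 1 lower, and wider intervals left 0 higher. Median-ratio and upper-quartile factors, no minimum, and leaving out members with under 50% unique windows kept both counts within 1.5 times and the median within -0.063 to 0.052, as did 2 counts added, the mean and the constitutive subunits alone for the median. The last uniqueness setting was taken against annotated transcripts and added after the data were seen; the planned one against the genome was not run. Of the 43 measured members 35 kept their call with plain CPM, 7 became called and 1 lost its call, and none changed direction past the threshold. No paired analysis was possible because each condition had 1 library, and no library could be left out. Ratios of Psma5, Psmg3 and Psmg4 rest on under 60 counts each and carry the widest intervals. No difference between animals can be separated from a difference between conditions.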
